A study of Aspergillus nidulans with 24 samples.

Results

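The wild type of Aspergillus nidulans, a filamentous mould of the soil, was compared on fructose and on glucose with ammonium tartrate as the nitrogen source. The comparison used 6 of the 24 libraries of the study, 3 biological replicates from fructose cultures and 3 from glucose cultures, and it was made over every gene of the table. The fructose group grew on 0.1 % fructose with 10 mM ammonium tartrate, and the glucose group on 1 % glucose with 10 mM ammonium tartrate. Both came from the control strain, which carries areB and has the genotype biA1. Mycelium was collected after 9 to 11 h at 37 °C, a range that the labels give for every library alike. By the submitters' design the fructose medium does not repress the use of other carbon sources and the glucose medium does, while ammonium represses the use of other nitrogen sources in both. The sugars differed in amount as well as in kind, and effects of kind and amount cannot be told apart. Tartrate, an organic acid, was present in both media.

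The same sugars were compared in 18 other libraries. These were the wild type on 5 mM urea, and a strain with areB deleted on ammonium tartrate and on urea, with 3 libraries on each sugar. That strain has the genotype areBΔ::A.f. pyrG, pyrG89; argB2; nkuAΔ::argB, pabaB22; riboB2, so it differs from the control at several loci besides areB, which encodes a GATA-type transcription factor. None of these libraries was shared with the wild type on ammonium.

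Glucose is taken up and broken down in preference to most other carbon sources. In Aspergillus the zinc finger repressor CreA keeps many genes for other carbon sources low while glucose is plentiful. Pathway activators such as AlcR for ethanol, FacB for acetate and AmyR for starch switch on genes of their own pathways. Cells that do not live on plentiful sugar rely on fatty acid oxidation, the glyoxylate cycle and gluconeogenesis.

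Levels below are the authors' mean normalized counts of each group. With means alone, levels are printed without an error, and how deeply each library was sequenced is unknown. The log2 ratio is that of the fructose mean over the glucose mean after adding 1 to each. A gene was called higher or lower on fructose when this ratio was at least 1 in size, a 2-fold difference, and when the larger of its means was at least 10. The same genes were then used in the other 3 comparisons of these sugars, with no minimum there. No test was possible between group means. As a measure of error, each value after ± is an approximate standard error of the log2 ratio, built from the spread per gene that the authors' deposited table implies for its own comparisons. It assumes that replicates varied alike in all 8 groups, and where none is printed none could be recovered. Normalized counts are shares of each culture's RNA, so fewer cells of a kind and less RNA per cell cannot be told apart.

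Of 8728 genes, 7985 passed the minimum and 743 did not. On fructose 1370 genes were at least 2-fold higher, 17.2% of those that passed, and 479 were at least 2-fold lower, 6.0%. Together these made up 23.2%. The imbalance was wider at 4-fold, with 641 genes higher and 100 lower, or 8.03% and 1.25%. The median log2 ratio over all genes was 0.03. Of the 1849 genes past 2-fold, 1640 had an approximate standard error, and 1348 of these, or 17.5% of all 7716 genes with one, differed by at least 2 of them. The median standard error was 0.45, so differences close to 2-fold were often within the error. On glucose 28 of the higher genes were listed at 0.

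**Figure D1:**
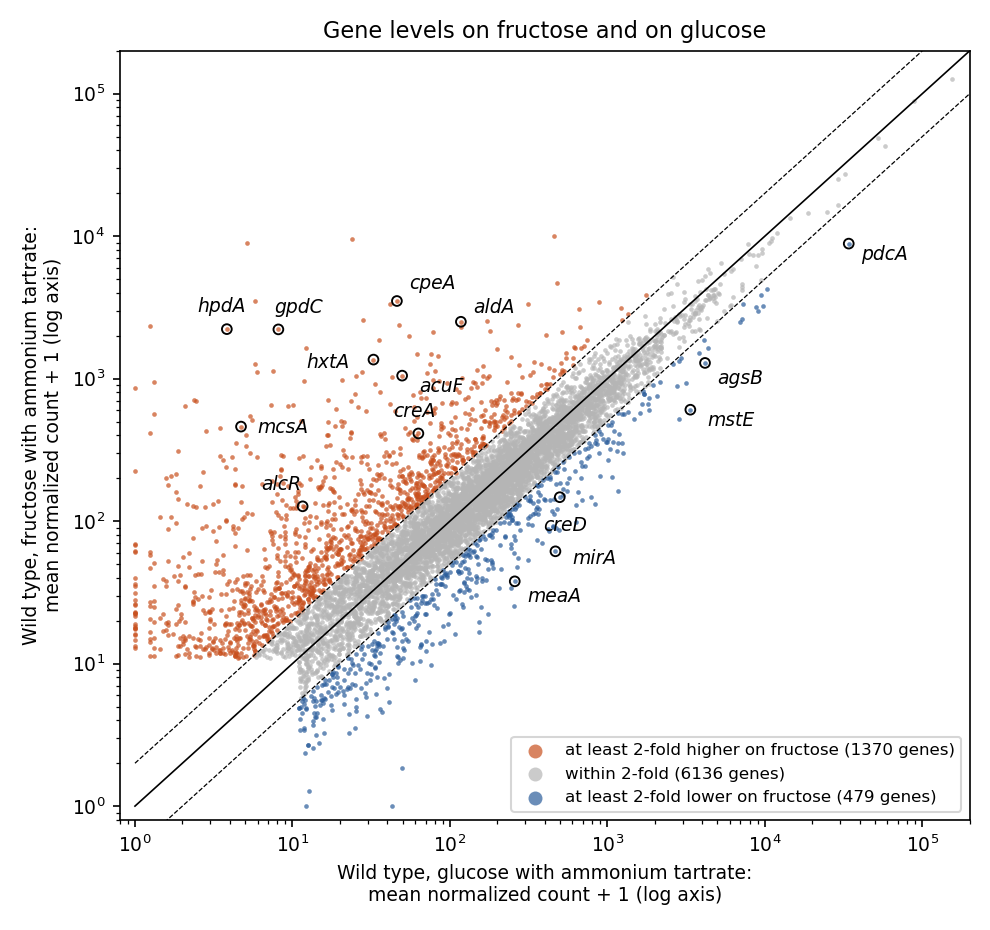
Mean normalized count plus 1 of each gene in the wild type with ammonium tartrate, on fructose (vertical, log axis) and on glucose (horizontal, log axis), for the 7985 genes whose larger mean was at least 10. The solid line marks equal levels and the dashed lines a 2-fold difference. More genes lie above the lines (1370) than below them (479), and the rings mark genes described in the text.

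Many regulators of carbon use were at higher levels on fructose. Of 24 such genes that passed the minimum, 11 were higher and 2 lower, with a median log2 ratio of 0.80 against 0.03 over all genes. Of the 11, 10 differed by at least 2 standard errors. The repressor gene creA itself had means of 411 on fructose and 62.1 on glucose, a log2 ratio of 2.71 ± 0.71. The ethanol activator alcR had 126 on fructose and 10.6 on glucose (3.45 ± 0.73 on the log2 scale), and the starch activator amyR had 77.0 on fructose and 11.0 on glucose (2.70 ± 0.52). For facB, the activator of acetate use, the means were 561 on fructose and 190.0 on glucose, a log2 ratio of 1.56 ± 0.46. These 4 differences each exceeded 3 of their standard errors.

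Among activators for plant polymers, the log2 ratio was 1.39 ± 0.59 for araR of arabinose use, 1.27 ± 0.76 for the cellulase regulator clrB and 1.10 ± 0.54 for the xylanase regulator xlnR. All 3 were past 2-fold, but clrB by less than 2 standard errors. Their relative clrA, at 0.67 ± 0.39, did not reach 2-fold, and neither did the galactose regulators galX (0.23 ± 0.35) and galR, whose means stayed under 10. The sensing genes differed in direction. A secretin-like receptor gene for nutrients, gprH, had 116 on fructose and 23.0 on glucose (2.29 ± 0.73), and the G protein subunit gene ganB, which acts in carbon sensing, had a log2 ratio of 1.42 ± 0.58. The receptor gene gprD instead had 117 on fructose and 442 on glucose (-1.91 ± 0.56).

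Genes of the ubiquitin-linked side of carbon repression had no shared direction. The WD40 protein gene creC, partner of the deubiquitinase CreB, had a log2 ratio of 1.08 ± 0.43, while creB itself had 0.45 ± 0.31 and acrB 0.49 ± 0.34. The arrestin-like gene creD was lower, with means of 146 on fructose and 497 on glucose (-1.76 ± 0.60). Its relative apyA, described in the table as a similar arrestin-domain protein, was also lower, with 147 on fructose and 788 on glucose (-2.42 ± 0.78). The MADS-box gene mcmA was past 2-fold at 1.52 ± 0.51. The remaining regulators, hxkC, pkaR, acuK, pkaA, acuM, xprF and schA, lay between -0.20 and 0.93.

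Hexose transporter genes ascribed a high affinity were higher on fructose, and the one ascribed a low affinity was lower. The putative one hxtA had means of 1359 on fructose and 31.7 on glucose (5.38 ± 0.95 on the log2 scale), mstC had 1485 on fructose and 60.7 on glucose (4.59 ± 0.71), and mstA had 46.8 on fructose and 15.7 on glucose (1.51 ± 0.67). The low-affinity glucose transporter gene mstE was lower, with 604 on fructose and 3363 on glucose and a log2 ratio of -2.47 ± 0.88. Of the xylose transporter genes, xtrE was higher with 800.0 on fructose and 63.3 on glucose (3.64 ± 0.82), and xtrA, xtrB, xtrC and xtrD lay between -0.43 and 0.95. In this list of 10, 4 were higher and 1 lower, and rcoA, which encodes a WD40 repeat protein and not a transporter, had a log2 ratio of 0.65 ± 0.25.

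Glycolysis genes leaned towards lower levels on fructose, mostly by less than 2-fold. Of 16, 14 had a ratio below 0, and the median log2 ratio was -0.62, but only 2 were past 2-fold in that direction. These were pdcA, the gene of pyruvate decarboxylase at the entry to ethanol formation, with means of 8861 on fructose and 34087 on glucose (-1.94 ± 0.80), and the pyruvate kinase gene pkiA, with 474 on fructose and 1005 on glucose (-1.08 ± 0.55, within 2 standard errors). The hexokinase gene hxkA and the glucokinase gene glkA had log2 ratios of -0.48 ± 0.60 and -0.71 ± 0.65. Phosphofructokinase, from pfkA, had -0.93 ± 0.73, and the 3 pyruvate dehydrogenase genes pdhA, pdhB and pdhC had -0.77, -0.74 and -0.90, each within 2 standard errors. Aldolase, from fbaA, was at 0.27 ± 0.33.

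Far from the other glycolysis genes was gpdC, described as a glyceraldehyde-3-phosphate dehydrogenase gene. Its means were 2215 on fructose and 7.14 on glucose, a log2 ratio of 8.09, and no standard error could be recovered. With urea in place of ammonium tartrate, gpdC had only 14.7 on fructose and 0.602 on glucose. In the deletion strain it had 131 on fructose and 7.02 on glucose with ammonium, and 1.19 on fructose and 0 on glucose with urea. The better known gene of that step, gpdA, had 6160.0 on fructose and 8839.9 on glucose (-0.52 ± 0.49). The isomerase genes swoM and tpiA, the kinase gene pgkA, the phosphoglycerate mutase gene pgmA and the phosphoglucomutase gene pgmB had log2 ratios from -0.74 to -0.30.

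Genes for growing on acetate and for making sugar from it were nearly all higher on fructose. Of 16 genes of acetate use, the glyoxylate cycle and gluconeogenesis, 14 were past 2-fold higher and none lower, each of the 14 by at least 2 standard errors, with a median log2 ratio of 1.83. Phosphoenolpyruvate carboxykinase, which opens gluconeogenesis, is encoded by acuF, and its means were 1049 on fructose and 48.7 on glucose (4.40 ± 0.77). For acuG, the fructose-1,6-bisphosphatase gene later in that pathway, they were 654 on fructose and 194 on glucose (1.75 ± 0.34). The glyoxylate cycle genes acuD for isocitrate lyase and acuE for malate synthase had log2 ratios of 1.33 ± 0.62 and 2.14 ± 0.81.

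Acetyl-CoA synthetase, encoded by facA, makes acetate usable, and its means were 3096 on fructose and 660.1 on glucose (2.23 ± 0.69). The carriers and transferases that move acetyl units and C4 acids between compartments were also higher, with log2 ratios of 3.68 ± 0.54 for acuL, 1.81 ± 0.53 for acuJ, 1.58 ± 0.44 for acuH and 1.10 ± 0.52 for facC. Propionyl-CoA is cleared by the methylcitrate cycle. Its synthase gene mcsA had 459.7 on fructose and 3.71 on glucose (6.61 ± 0.91), its dehydratase gene mcdB had 1260.5 on fructose and 73.6 on glucose (4.08 ± 0.78), and its lyase gene mclA had a log2 ratio of 1.85 ± 0.48. Aconitase, from acoA, had 3318 on fructose and 313 on glucose (3.40 ± 0.80), and the isocitrate dehydrogenase gene idpA 1.34 ± 0.40. The 2 members not past 2-fold were the enolase gene acuN at -0.44 ± 0.54 and the citrate synthase gene citA at -0.93 ± 0.63.

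Genes of the ethanol pathway mostly had higher levels on fructose. Of 6 that passed the minimum, 5 had a ratio above 0, with a median log2 ratio of 2.67. Past 2-fold, 3 were higher and 1 was lower, or 50% and 16.7% against 17.2% and 6.0% of all genes. Aldehyde dehydrogenase, from aldA, had means of 2506 on fructose and 116 on glucose (4.42 ± 0.82), alcohol dehydrogenase II, from alcB, 702 on fructose and 15.8 on glucose (5.38 ± 0.95), and alcP, a gene of the alc set described as a gluconolactonase, 101 on fructose and 2.77 on glucose (4.75 ± 0.91). Alcohol dehydrogenase I, from alcA, the classical target of AlcR, had 79.0 on fructose and 41.0 on glucose (0.93 ± 0.77), less than 2-fold. Alcohol dehydrogenase III, from alcC, had 2481 on fructose and 6947 on glucose (-1.49 ± 0.85), lower like pdcA but within 2 standard errors. The cluster gene alcU was at 0.71 ± 0.63, and the means of alcM and alcS were under 10 in both groups.

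**Figure D2:**
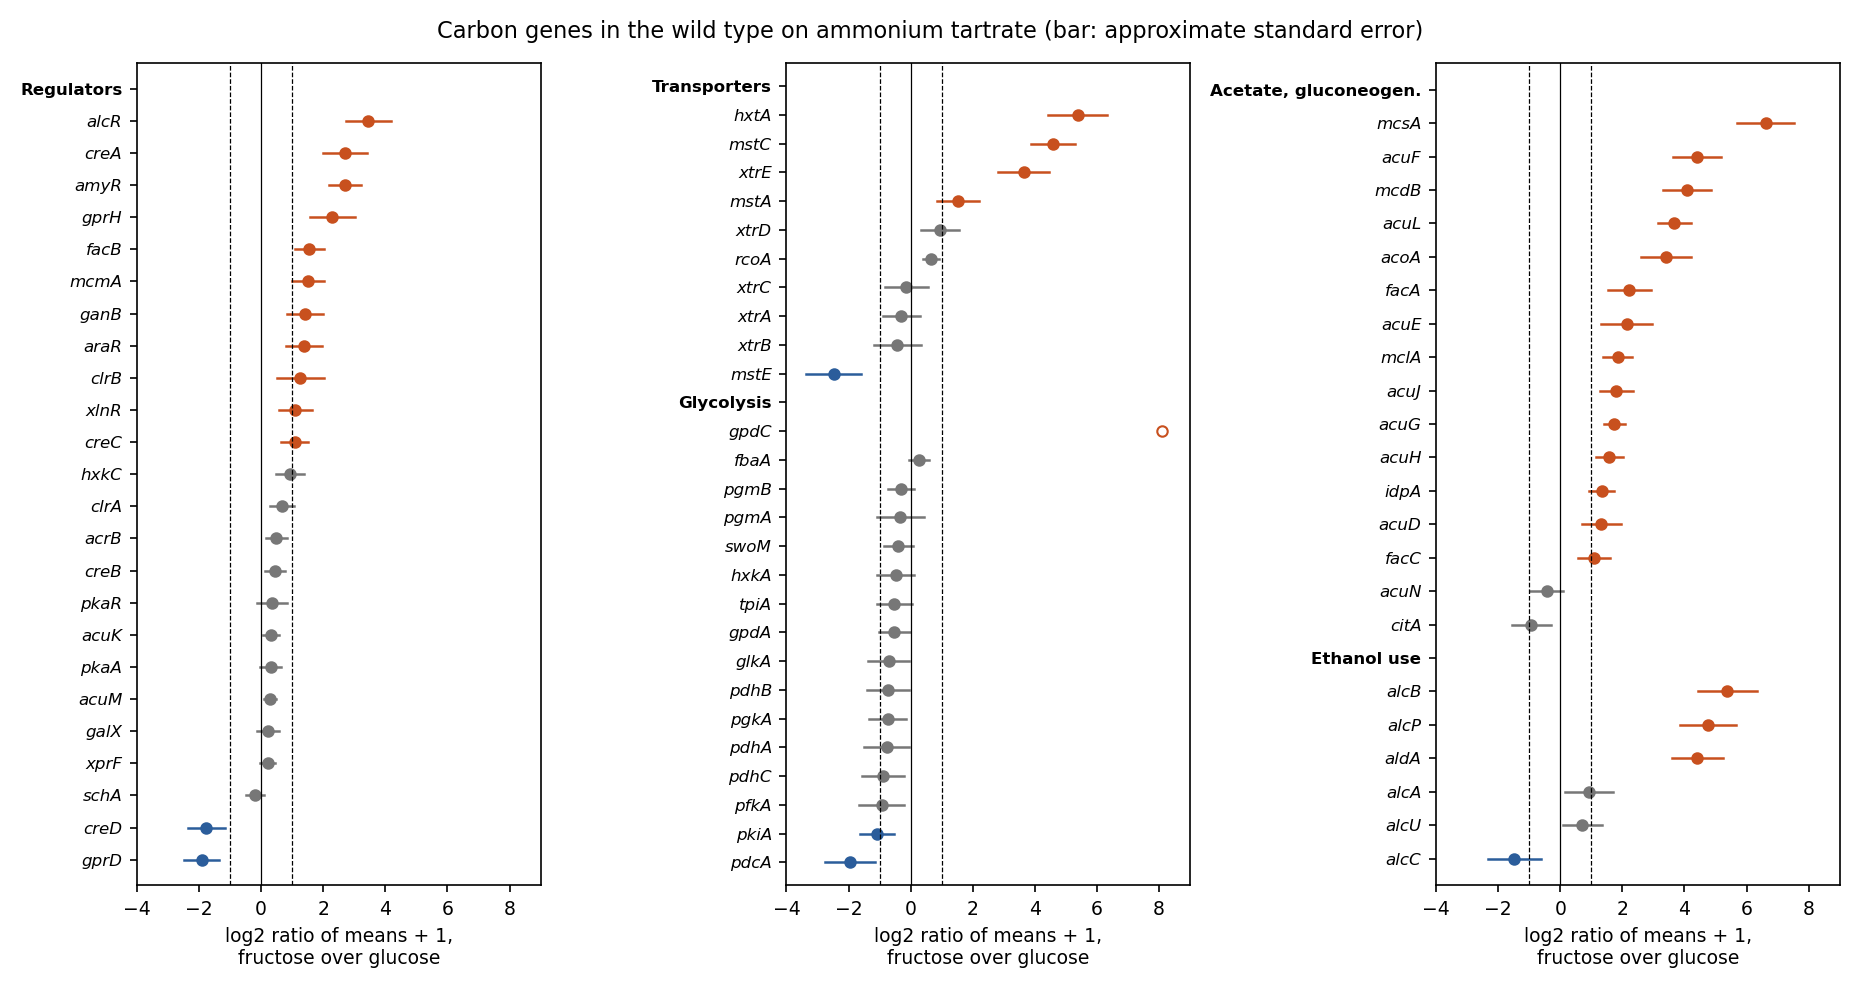
The log2 ratio of means plus 1, fructose over glucose, for each carbon gene of the wild type with ammonium tartrate whose larger mean was at least 10 (horizontal axis). Bars are 1 approximate standard error on each side, the open circle has none, and dashed lines mark 2-fold. The acetate and gluconeogenesis genes other than acuN and citA lie to the right, and 14 of the 16 glycolysis genes lie left of 0.

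Fatty acid oxidation and peroxisome genes were another largely one-sided group, with 16 of 22 higher on fructose, none lower and a median log2 ratio of 1.96. The peroxisomal multifunctional enzyme gene foxA had means of 1123 on fructose and 79.2 on glucose (3.81 ± 0.83), aoxA, described with beta-oxidation, had 164 on fructose and 54.7 on glucose (1.57 ± 0.45), the acyl-CoA dehydrogenase gene acdA had a log2 ratio of 3.71 ± 0.88, and farB, the activator for short-chain fatty acids, had 632 on fructose and 58.0 on glucose (3.42 ± 0.76). The list includes mitochondrial enzymes of leucine breakdown, isovaleryl-CoA dehydrogenase and methylcrotonyl-CoA carboxylase, whose genes ivdA, mccA and mccB gave its 3 highest ratios. Counted instead by description, 39 of 74 peroxisome and fatty acid oxidation genes were higher and 2 were lower, all 41 by at least 2 standard errors.

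Genes for breaking down amino acids and amides included some of the highest ratios. Of 18, 12 were higher and 1 lower, with a median log2 ratio of 2.38. Phenylalanine and tyrosine are degraded through homogentisate, and the pathway's genes had low means on glucose. The dioxygenase gene hpdA had means of 2225 on fructose and 2.83 on glucose, a log2 ratio of 9.18. Homogentisate dioxygenase, from hmgA, had 1631 on fructose and 11.2 on glucose (7.07), the hydrolase gene fahA 549 on fructose and 4.35 on glucose (6.68) and the isomerase gene maiA 283 on fructose and 4.95 on glucose (5.58). These 4 genes had no adjusted p-value in the authors' deposited table, so their ratios stand without an error. With group means alone, whether a single library carried these means could not be seen.

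Genes of leucine breakdown were higher as well. The means were 2001 on fructose and 53.8 on glucose for mccA (5.19 ± 0.92), 971 on fructose and 19.6 on glucose for mccB (5.56 ± 0.93) and 1869 on fructose and 34.3 on glucose for ivdA (5.73 ± 0.92). The acidic amino acid permease gene agtA had 111 on fructose and 4.50 on glucose (4.35 ± 0.71). Proline genes were mixed, with prnC, the gene of the pathway's second enzyme, at 2.73 ± 0.95, the permease gene prnB at 0.08 ± 0.61 and the proline dehydrogenase gene prnD at -1.08 ± 0.92.

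Starch and disaccharide genes were higher in 14 of 22 cases and lower in 3, with a median log2 ratio of 1.72. Glucoamylase, from glaA, had means of 129 on fructose and 15.8 on glucose (2.95 ± 0.83), the alpha-glucosidase gene agdB 948 on fructose and 138 on glucose (2.77 ± 0.78) and the beta-glucosidase gene bglA 1613 on fructose and 199 on glucose (3.02 ± 0.69). A further beta-glucosidase gene, bglR, had 51.8 on fructose and 1.65 on glucose (4.32 ± 0.88). The 3 lower ones were the amylase gene amyD and the glucosidase genes bglD and bglJ, with log2 ratios from -2.34 to -1.33, of which only that of amyD exceeded 2 standard errors.

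Plant cell wall genes went both ways, with 11 of 29 higher, 4 lower and a median log2 ratio of 0.34. These shares were 37.9% and 13.8%, against 17.2% and 6.0% of all genes. At least 2 standard errors were reached by 7 of the 11 higher genes and by all 4 lower. Of the 4 highest with a mean of at least 50, 3 act on pectin or its side chains. The arabinanase gene abnC had a mean of 224 on fructose and was listed at 0 on glucose. The polygalacturonase genes pgxA and pgxB had log2 ratios of 5.02 ± 0.88 and 3.65 ± 0.94. The alpha-galactosidase gene aglC, for mannans, had 179 on fructose and 3.30 on glucose (5.39 ± 0.91). The pectin methylesterase gene pmeA, with 32.9 on fructose and 204 on glucose (-2.59 ± 0.89), and the xyloglucan enzyme gene xgcA, at -1.62 ± 0.72, were lower, as were xlnB and eglC. Glycoside hydrolases taken by description were higher in 52 of 134 cases and lower in 19, or 38.8% and 14.2%. Of these, 42 and 12 differed by at least 2 standard errors. In a list of 15 genes for pentoses, polyols and galactose, 3 were higher and 1 was lower. These shares, 20% and 6.67%, were close to the 17.2% and 6.0% of all genes. Among the higher was the arabitol dehydrogenase gene ladA, with 249.8 on fructose and 28.9 on glucose (3.07 ± 0.84).

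**Figure D3:**
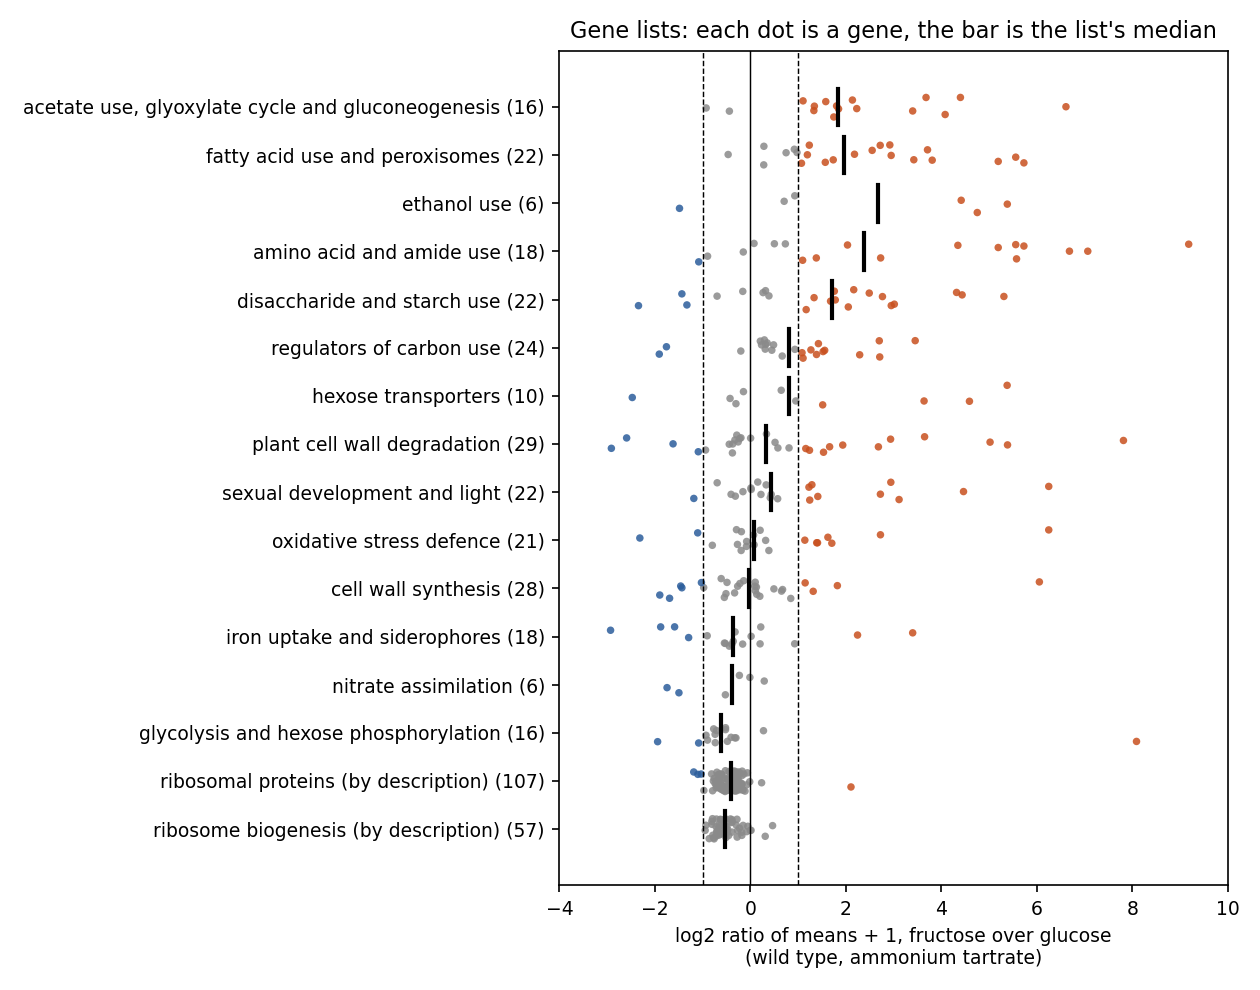
The log2 ratio of means plus 1, fructose over glucose, of every gene with a mean of at least 10 in 16 gene lists (number of genes in brackets), for the wild type with ammonium tartrate. Each dot is a gene, black bars are list medians, and dashed lines mark 2-fold. Medians run from 2.67 for ethanol use to -0.62 for glycolysis, and the ribosomal protein genes form a narrow band just below 0.

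Growth-related genes showed small, even differences towards lower levels on fructose. Of 107 genes described with ribosomal proteins, 105 had a ratio below 0, with a median log2 ratio of -0.41, yet only 3 were past 2-fold lower. The 1 past 2-fold higher was psk1, described as a kinase of ribosomal protein S6 and not itself a ribosomal protein (2.11 ± 0.69). In ribosome biogenesis 54 of 57 genes were below 0, with a median of -0.52, and none was past 2-fold. The medians were -0.45 for 34 aminoacyl-tRNA synthetase genes and -0.29 for 39 translation factor genes, again with none past 2-fold. Proteasome genes, with a median of 0.06, and genes described with chaperones, with -0.17, stayed near the middle of all genes. The standard errors of single ribosomal genes, such as rpl3 at -0.50 ± 0.81, were as large as these differences. Scaling both columns to the same sum raised the median ratio of all genes by 0.06.

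Genes of the respiratory chain and ATP synthase had a median of -0.21, with 6 of 42 past 2-fold higher, or 14.3% against 17.2% of all genes. All 6 were described as succinate dehydrogenase genes, the enzyme that links the citrate cycle to the chain, and 5 of these have no symbol. Among them AN1543 had means of 1223 on fructose and 161 on glucose (2.92 ± 0.72), AN2916 had 841 on fructose and 401 on glucose (1.07 ± 0.54) and carC 60.4 on fructose and 18.6 on glucose (1.64 ± 0.54). Of the 6, 3 differed by at least 2 standard errors, AN0896, AN1543 and carC. The NADH dehydrogenase gene ndeA had 573 on fructose and 1613 on glucose (-1.49 ± 0.35). The highest mean normalized counts on fructose among genes with a symbol, not corrected for length, were those of oxiA, oxiB, oxiC and cobA of the mitochondrial chain and of atp9, with log2 ratios from -0.42 to -0.11. The fatty acid synthase gene fasB, also among the 6 highest, had 16568 on fructose and 29164 on glucose (-0.82 ± 0.67).

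Of 16 regulators of nitrogen use, 4 were higher and none lower, against 17.2% and 6.0% of all genes. The bZIP gene meaB had 114 on fructose and 27.9 on glucose (1.99 ± 0.63), tamA, a partner of the nitrogen activator AreA, had 59.3 on fructose and 14.2 on glucose (1.99 ± 0.74), and jlbA and amdX had log2 ratios of 1.76 ± 0.59 and 1.54 ± 0.67. The gene of AreA itself had a log2 ratio of 0.68 ± 0.50, and areB had means of 75.4 on fructose and 73.5 on glucose, a log2 ratio of 0.04. In nitrate assimilation 2 of 6 genes were lower, or 33.3% against 6.0% of all genes, and none was higher. The lower ones were niaD for nitrate reductase at 17.7 on fructose and 61.6 on glucose (-1.75 ± 0.86) and niiA for nitrite reductase at 522 on fructose and 1476 on glucose (-1.50 ± 0.62). The molybdenum cofactor genes cnxE and cnxG were at 0.29 and -0.52. Of 7 genes of ammonium uptake and glutamate metabolism that passed the minimum, 1 was higher and 1 was lower, each 14.3% of the list. The higher one was the GABA transaminase gene gatA at 1.24 ± 0.87, within 2 standard errors. The lower one was the ammonium transporter gene meaA, with 36.8 on fructose and 257 on glucose (-2.77 ± 0.82). Another gene of this family, mepC, had a log2 ratio of 0.11 ± 0.33, and the glutamate dehydrogenase gene gdhA was at -0.68 ± 0.68.

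In urea and purine use, 5 of 14 genes were higher and 1 was lower, or 35.7% and 7.14% against 17.2% and 6.0% of all genes. Xanthine dehydrogenase, from hxA, had 3463 on fructose and 885 on glucose (1.97 ± 0.70), and hxB, needed for the cofactor of that enzyme, had 257 on fructose and 81.3 on glucose (1.65 ± 0.66). The nucleoside transporter gene cntA was at 2.07 ± 0.72 and the purine transporter gene fcyB at -2.27 ± 0.57.

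Siderophore genes were among those lower on fructose. Siderophores are small iron carriers that fungi secrete and take back. Of 18 iron genes 4 were lower, or 22.2% against 6.0% of all genes, and 2 were higher. The transporter gene mirA had means of 60.4 on fructose and 467 on glucose (-2.93 ± 0.89), sidA, for the first step of synthesis, had 3245 on fructose and 9755 on glucose (-1.59 ± 0.89), sidI had 310.2 on fructose and 1144 on glucose (-1.88 ± 0.84) and sidD had 3868 on fructose and 9484 on glucose (-1.29 ± 0.73). The ratios of sidA and sidD were within 2 standard errors. The 2 higher were acoA, an enzyme of iron and sulfur chemistry described above, and ngn26, which the table describes as an ortholog of SidG, with 78.8 on fructose and 15.8 on glucose (2.24 ± 0.64).

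Of 28 genes of the hyphal wall, 4 were higher, or 14.3% against 17.2% of all genes, and 5 were lower, or 17.9% against 6.0%. Each of these differed by at least 2 standard errors. The alpha-1,3-glucan synthase gene agsB had 1288 on fructose and 4166 on glucose (-1.69 ± 0.62) and the chitin synthase gene chsF 48.9 on fructose and 185 on glucose (-1.90 ± 0.77). The mannoprotein gene mnpA had 335 on fructose and 4.06 on glucose (6.05 ± 0.89), and the glucanosyltransferase gene gelB had 185 on fructose and 51.5 on glucose (1.82 ± 0.52).

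Several genes tied to development and to starvation were higher, and others were not. Of 22 genes of sexual development and light response, 9 were higher and 1 lower, or 40.9% and 4.55% against 17.2% and 6.0% of all genes. At least 2 standard errors were reached by 7 of the 9 higher genes and not by the lower one. The catalase-peroxidase gene cpeA had 3505 on fructose and 45.1 on glucose (6.25 ± 0.96), the oxylipin enzyme gene ppoC 2359 on fructose and 271 on glucose (3.11 ± 0.91), and nosA, an activator of sexual development, 599 on fructose and 77.0 on glucose (2.94 ± 0.89). The repressor gene rosA had 71.3 on fructose and 2.27 on glucose (4.46). Of 9 genes of autolysis and secreted proteases, 4 were higher, or 44.4% against 17.2% of all genes, and none was lower. Among the higher were xprG, a regulator of protease production in starvation, with 385 on fructose and 22.3 on glucose (4.05 ± 0.84), the protease gene prtB at 2.80 ± 0.81, and pepJ, with a mean of 61.0 on fructose and listed at 0 on glucose. The other 5 were not past 2-fold. Of these, engA and chiB, both described with autolysis, were at 0.11 ± 0.40 and 0.17 ± 0.51. The protease gene prtA was at 0.09 ± 0.31 and the chitinase gene chiA at -0.64 ± 0.56. The central genes of spore formation stayed low, as brlA, abaA and wetA had means under 10 in both groups, and of 21 conidiation genes 2 were higher and 1 was lower, a share of 9.52% and 4.76% against 17.2% and 6.0% of all genes.

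Some of the genes called were neighbours with a shared direction. For the order of genes, 8253 identifiers could be matched to RefSeq's ASM1142v1 assembly. There were 18 runs of at least 4 adjacent genes higher on fructose, with 84 genes, and 3 runs lower, with 13 genes. The genes named from these runs were chosen after their values were seen. One run of 5 on chromosome VII was made up of maiA, fahA, hmgA, AN1898 and hpdA, and one of 7 on chromosome III held mccA, ivdA and mccB. On chromosome VII a run of 5 began with dicB, a mitochondrial carrier gene with means of 704 on fructose and 1.39 on glucose, followed by acuF and ending with the peroxin gene pexK. A run of 4 on the same chromosome held amyR, agdA, amyA and AN2019, the regulator of starch use beside 2 starch enzymes.

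Of the lower runs, 1 on chromosome VI was of the wall, with agsB, the amylase-like genes amyD and amyG, and AN3310, which had 24.5 on fructose and 254 on glucose (-3.32 ± 0.70). Another on chromosome I held cffA, with 21.5 on fructose and 174 on glucose (-2.96 ± 0.91), pdkA, ldhA and 2 unnamed genes.

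**Figure D4:**
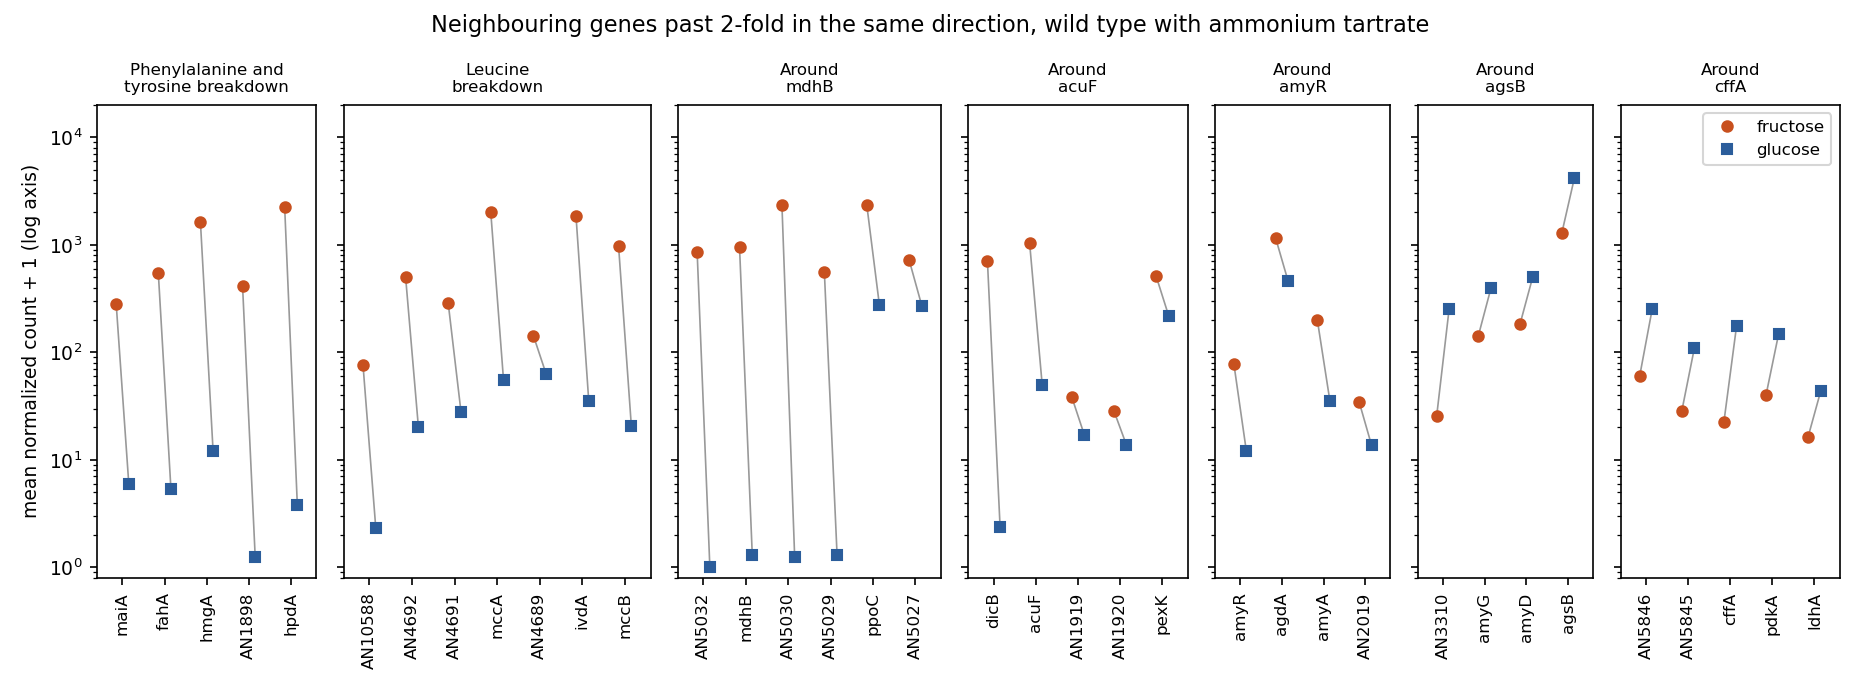
Mean normalized count plus 1 (log axis) on fructose (circles) and on glucose (squares) for 7 runs of adjacent genes that were past 2-fold in the same direction, in the wild type with ammonium tartrate. Panels follow gene order on the chromosome. In the first 5 panels the circles lie above the squares, and in the last 2 below them.

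Most of these differences were also seen with urea. Across the 7985 genes the log2 ratios of the wild type on ammonium and on urea had a Pearson correlation of 0.84, from libraries that are not shared, with sugar and strain in common. Of the 1370 genes higher on ammonium, 1166 were also past 2-fold higher on urea, where 20.8% of genes were, and these are 85.1% of the ammonium list and 70.3% of the urea list. Opposite calls were made for 4. Of the 479 lower genes, 273 were lower on urea, where 7.86% were, which is 57.0% of the ammonium list and 43.5% of the urea list, and 13 were called in the opposite direction.

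In the strain without areB the direction was again mostly shared. On ammonium, 752 of the 1370 were past 2-fold higher in that strain against a background of 10.7%, and the median log2 ratio of the 1370 genes was 1.10 there, against 1.91 in the wild type libraries by which they were chosen. Their median was 2.10 in the wild type on urea. Since the choice itself favours the libraries it was made in, these medians are no test between strains. Of the lower genes, 270 of 479 were lower in the deletion strain on ammonium, against 5.16%. On urea in that strain 708 were higher, against 10.2%, and 246 lower, against 4.88%. In all 4 comparisons 573 genes were past 2-fold higher, 7.18% of the 7985, and 172 lower, 2.15%. The minimum of 10 was set only for the wild type on ammonium, so means elsewhere could be smaller.

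Genes with a symbol outside the carbon lists were ranked next. They had a mean of at least 50 in the wild type on ammonium and were past 2-fold in all 4 comparisons. The 12 highest ratios on ammonium were those of hpdA, dicB, abnC, hmgA, fahA, cpeA, fatC, mnpA, pepJ, ivdA, maiA and mccB. Some, such as hpdA and pepJ, had means under 10 on both sugars in the deletion strain. The acyl-CoA synthetase gene fatC had means of 107 on fructose and 0.449 on glucose. The 4 highest without a symbol were AN8445, described as an aminopeptidase, with 645 on fructose and 1.07 on glucose, AN8390, of the GPR1/FUN34/YaaH family, with 697 on fructose and 1.45 on glucose, AN1792, with a hydrolase domain, with 1263 on fructose and 4.81 on glucose, and AN8559, described as a subunit of branched-chain keto acid dehydrogenase, with 1106 on fructose and 4.92 on glucose.

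The 12 lowest by the same criteria were cffA, mirA, hsp20, pmeA, apyA, nce102, chsF, sidI, niaD, CYP537B1, xgcA and lccD. The gene hsp20, described with unfolded protein binding, had 33.1 on fructose and 244 on glucose (-2.84 ± 0.90), and nce102, for a protein of membrane eisosomes, 159 on fructose and 645 on glucose (-2.01 ± 0.68). The cytochrome P450 gene CYP537B1 had 354 on fructose and 1163 on glucose (-1.71 ± 0.73) and the laccase gene lccD 24.8 on fructose and 77.7 on glucose (-1.61 ± 0.68). Without a symbol the lowest were AN3310, AN3638, AN8451 and AN1747, with log2 ratios from -3.32 to -2.94.

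Single genes differed in how far their ratios held across the 4 comparisons. The log2 ratio of alcR was 3.45 here, 3.62 in the wild type on urea, and 4.07 on ammonium and 3.80 on urea in the deletion strain. That of creA was 2.71, 2.82, 0.52 and 0.45 in the same order. The ethanol gene alcA had 0.93, 4.81, 2.72 and 3.81. For esdC, a gene of sexual development chosen after its values were seen, they were 2.72, 3.89, 0.20 and 0.50. Genes higher in both wild type comparisons but under 0.5 in size in both of the deletion strain numbered 131 of 1166, and whether the strains differ was not tested.

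In the wild type a small group had large ratios with ammonium tartrate only. At least 4-fold differences on ammonium with a log2 ratio under 0.5 in size on urea were found for 17 genes higher and 4 lower on fructose with means of at least 50. The 3 of these with a symbol were mdhB, tmpA and agdE, and the genes without one named here were chosen after their values were seen. A gene described as tartrate dehydrogenase, AN4003, had means of 9491 on fructose and 23.0 on glucose with ammonium tartrate, against 11.2 on fructose and 8.50 on glucose with urea. The other gene with this description, AN4822, had 10088 on fructose and 456 on glucose (4.46 ± 0.78), against 35.5 on fructose and 16.7 on glucose with urea, a log2 ratio of 1.04. These 2 are all the genes whose description names tartrate, and AN4822 is not among the 17.

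Next to each other on chromosome III lay AN5032, which is also not among the 17, mdhB, AN5030 and AN5029, a putative transporter gene, a putative malate dehydrogenase gene, an oxidoreductase gene and another putative transporter gene. Their means on fructose were 860.0, 948, 2343 and 563, and on glucose each was listed at or under 0.315. On urea mdhB had 0.287 on fructose and 0.497 on glucose, and AN5030 and AN5029 were listed at 0 on both sugars. In the deletion strain on ammonium AN5030 had a mean of 324 on fructose and 0.594 on glucose. The membrane transport gene AN2831 showed the same pattern, with 8957 on fructose and 4.11 on glucose (10.78 ± 0.93), and with 0 on fructose and 0.201 on glucose with urea. In 14 of the 17 higher genes the deletion strain was also past 2-fold higher on ammonium, against 10.7% of all genes. On urea 9 of the 17 had a log2 ratio under 0.5 in size in that strain. Of the 4 lower genes, 1 was also past 2-fold lower in that strain on ammonium. Tartrate was given only with ammonium, so the parts of these nutrients cannot be told apart here.

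The conidiation gene tmpA had 121 on fructose and 22.8 on glucose (2.36 ± 0.72) and 0.40 on the log2 scale on urea, and the alpha-glucosidase gene agdE had 303 on fructose and 66.8 on glucose (2.16 ± 0.88) and 0.17 on urea. Opposite calls on the 2 nitrogen sources, with means of at least 50, were made for 1 gene higher on ammonium, AN11742, and for 5 lower, AN0950, AN11477, AN7215, AN7990 and prnD, all named after their values were seen. The proline dehydrogenase gene prnD had 59.0 on fructose and 126 on glucose with ammonium, against 836 on fructose and 16.7 on glucose with urea. Its log2 ratio on ammonium, -1.08 ± 0.92, was within 2 standard errors of 0.

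**Figure D5:**
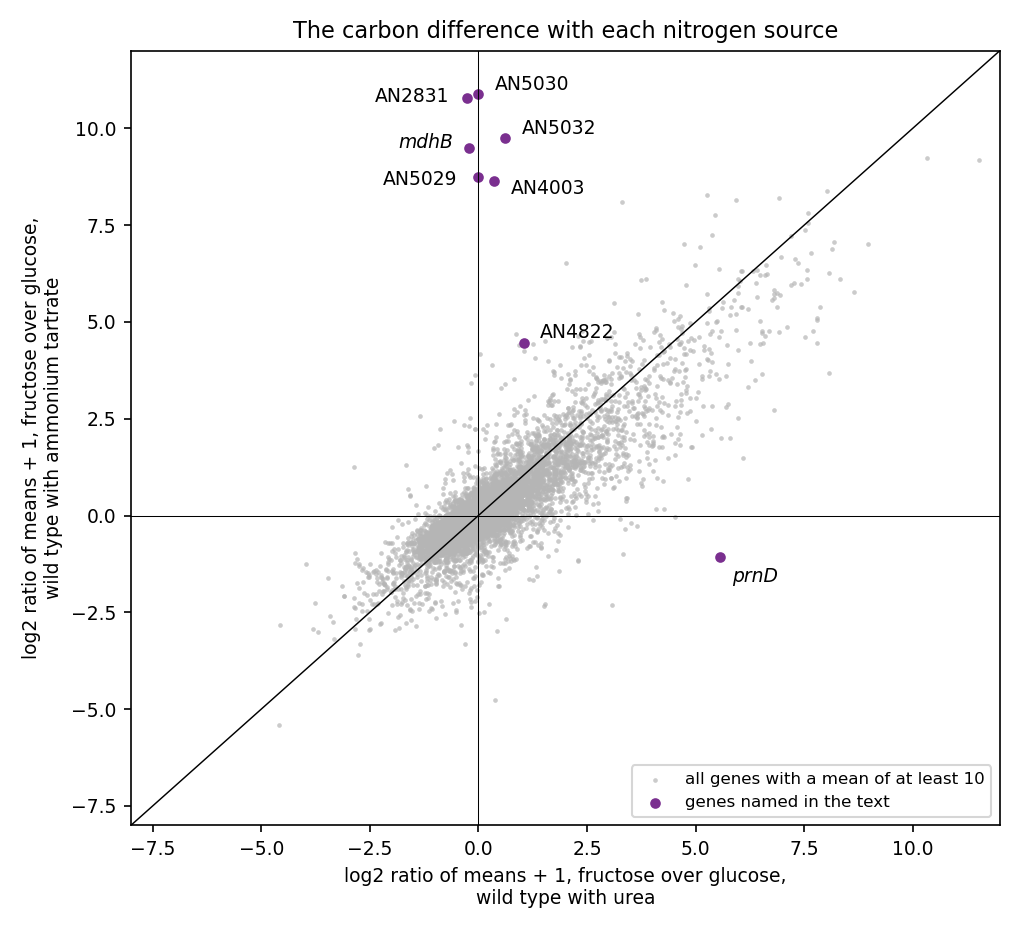
The log2 ratio of means plus 1, fructose over glucose, of the wild type with ammonium tartrate (vertical) and with urea (horizontal), for 7985 genes, with the line of equal ratios. Most genes follow the line (Pearson 0.84 across genes). The 7 genes named at the top lie far above the line, and prnD lies far below it at the lower right.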

How the data were processed

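Total RNA of mycelium had its ribosomal RNA removed before library making, with 14 cycles of amplification, and paired ends were read on a NovaSeq, per the labels' protocols. Per the submitters' processing notes, HTSeq 0.9.1, DESeq2 1.16.1, FastQC, Trimmomatic and GATK were used. For the aligner, build, annotation and strand setting, none is given in the sources used here. The authors deposited, per gene and group, a signal that is a mean of normalized counts over 3 libraries, and, for areB deletion over wild type in each of 4 media, a fold change as a ratio and an adjusted p-value. Only the group means entered the comparison. Their sums were 2.89e+06 on fructose and 3.01e+06 on glucose, and depth per library is unknown.

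From these means the log2 ratio was computed with a pseudocount of 1 and a minimum of 10 in the larger mean, with pandas 2.3.3 and numpy 2.4.6. The approximate standard error came from a dispersion per gene, obtained by inverting the adjustment of the authors' p-values and the moderation of their fold changes. The square root of this dispersion was compared between pairs of the authors' comparisons. It was the same to within 10 % for 99.7 % of the 7178 genes shared by the 2 fructose comparisons. For each of the other 5 pairs this held for 97.1 to 99.4 % of the 529 to 1053 shared genes. Such agreement would follow if the authors used 1 dispersion per gene throughout, so it is no check of the error between sugars. The method was tested on simulated data made with the same variance formula, which leaves the formula itself untested. The standard error served only as a measure of error, with no p-value, and 269 of the 7985 genes have none.

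The comparison, its 41 gene lists and the rule for named genes were chosen with earlier results of these data known. Of the lists 26 were matched by symbol and 15 by words in the table's descriptions, and a list by words holds any gene whose description uses them. From the symbol lists 9 entries were dropped because the table gives the gene another function. Named genes were every member of the 5 carbon lists, up to 4 members of each other list with the largest ratio and a mean of at least 50, the 12 with a symbol and 4 without that were highest and lowest in all 4 comparisons, up to 6 with 4-fold differences on ammonium and under 0.5 on urea, and the 6 highest means of each group. Others were chosen after their values were seen.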

Additional observations from a re-analysis of the deposited data

How the results depend on the processing

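No paired analysis was possible because the deposited table holds group means and no values per library, and for the same reason no replicate was left out. With the larger mean at least 50, 866 genes were higher on fructose and 314 lower. At 4-fold, 641 were higher and 100 lower. With the added demand of 2 approximate standard errors, 1038 were higher and 310 lower, among genes that have such an error. Other pseudocounts, no minimum, equal column sums and recentring on the median kept both counts within 1.5 times the main ones, from 1261 to 1561 higher and from 415 to 535 lower. With a pseudocount of 5, the genes past 2-fold in all 4 comparisons were 476 higher and 143 lower. Of 230 genes named in the text or by the rule none reversed, and AN7215, ugeA and xtrD crossed the 2-fold line under some alternative. Of 82 counts from the lists, 17 moved by over 1.5 times under some alternative, 15 of them with the minimum of 50. There the higher genes were 8 for starch and disaccharides, 6 for plant cell walls, 27 for glycoside hydrolases, 3 for urea and purines, 1 for quinate, 3 for secondary metabolites, 11 for P450 and 5 for Zn2Cys6, and the lower ones 12 for glycoside hydrolases, 1 each for secondary metabolites, oxidative stress, P450 and peptidases, and 0 for pentoses and conidiation. Recentring gave 2 lower genes each for pentoses and the respiratory chain, a pseudocount of 0.1 gave 1 lower for the chain, equal sums and a pseudocount of 5 gave 0 lower for conidiation, and no minimum gave 1 higher for respiration. The error rests on the deletion comparisons, was unavailable for many of the highest ratios, and no depth per library was known.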

Other observations

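Further gene groups of the wild type with ammonium tartrate were described in the same way. Of 48 genes described as cytochrome P450, enzymes that oxidise a wide range of compounds, 19 were higher and 6 lower on fructose, against 17.2% and 6.0% of all genes. CYP548D1 had means of 3485 on fructose and 4.82 on glucose, and its log2 ratio was 9.23 here and 10.33 on urea in the wild type, against 0.26 on ammonium and 1.54 on urea in the deletion strain. The benzoate hydroxylase gene bzuA had 107 on fructose and 12 on glucose (3.06 ± 0.83). Of 17 genes described with a Zn2Cys6 domain, 9 were higher and none lower. Of 120 described as peptidases, 20 were higher and 3 lower, or 16.7% and 2.5%, close to or below the shares of all genes.

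Secondary metabolite genes had no shared direction, with 8 of 25 higher and 5 lower, or 32% and 20% against 17.2% and 6.0% of all genes. At least 2 standard errors were reached by 6 of the 8 higher genes and by 1 of the 5 lower. Of the 25 genes, 20 had a standard error. The aspyridone synthetase gene apdA had 11.2 on fructose and 69.2 on glucose (-2.53 ± 0.88), the penicillin gene aatA 65.0 on fructose and 11.0 on glucose (2.46 ± 0.77), the cichorine cluster transporter gene cicA 603 on fructose and 166 on glucose (1.86 ± 0.64) and the sterigmatocystin gene stcK 136 on fructose and 38.7 on glucose (1.78 ± 0.83). Stress defence genes were higher in 7 of 21 cases and lower in 2, or 33.3% and 9.52% against 17.2% and 6.0% of all genes. Only 3 of the 7 higher and 1 of the 2 lower differed by at least 2 standard errors. Among the higher was the catalase gene catC, with 59.8 on fructose and 8.20 on glucose (2.72 ± 0.73). In pH signalling and ion pumps 1 of 14 was higher, or 7.14% against 17.2% of all genes. It was the ATPase gene enaB, with 596 on fructose and 43.8 on glucose (3.74 ± 0.62). The trehalase gene treA had 2285 on fructose and 665 on glucose (1.78 ± 0.60). It was the 1 of 8 trehalose and germination genes past 2-fold, or 12.5% against 17.2% higher among all genes. The quinate gene qutG, 1 of 2 higher among 6, had 65.7 on fructose and 3.34 on glucose.

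No adjusted p-value stood in any comparison of the authors' deposited table for 89 genes. Of these 85 passed the minimum here, and 82 were higher on fructose and 1 lower. The sources used here give no reason for the missing values, and no values per library were available to look into them.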
